A study of Mus musculus with 8 samples.

Results

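A set of 10 genes of H3K9 methylation and heterochromatin was followed: Ehmt1, Ehmt2, Setdb1, Suv39h1, Suv39h2, Trim28, Zfp57, Cbx1, Cbx3 and Cbx5. They were found by symbol in the deposited expression table, where they make up 10 of 17589 genes and 71 of 45550 transcript entries, and all 10 reached the mean level of 1 FPKM that was needed for testing. FPKM are fragments mapped to a transcript, divided by its length and by the size of the library, so levels of different genes can be set side by side. The study asked what the loss of KDM1A, a histone demethylase that removes methyl groups from lysine 4 of histone H3, does to the RNA of spermatogonia, the germ cells at the base of the seminiferous tubule. There were 4 Kdm1a conditional knockout (KO) libraries and 4 Control libraries. All 8 came from testes of C57BL/6 mice at 6 days post partum that carry the GOF/deltaPE-Oct4/GFP reporter, in which regulatory sequence of Oct4 drives GFP in early germ cells, and GFP-positive cells were collected by flow sorting. The Cre driver, the deleted exons and the genotype of the Control animals beyond that word were not stated in the material used here. The labels do not say whether the libraries of a group came from separate animals, so the p-values measure spread between samples only, and that spread may be technical.

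Methylation of lysine 9 on histone H3 marks silent chromatin. EHMT1 and EHMT2 (GLP and G9a) work as a heterodimer that places the lower methylation states in euchromatin. SETDB1 places trimethylation where KRAB zinc finger proteins and their corepressor TRIM28 (KAP1) bring it, and SUV39H1 and SUV39H2 place it at pericentromeric repeats. The HP1 proteins CBX5, CBX1 and CBX3 (HP1 alpha, beta and gamma) bind the methylated lysine. ZFP57 is a KRAB zinc finger protein that binds methylated DNA at imprinting control regions and keeps the parental mark there through TRIM28. In mouse male germ cells, loss of EHMT2 is known to disturb meiotic prophase, and SUV39H2 is known for its expression in testis.

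Kdm1a itself checked the labels. It was at 14.2, 14.1, 17.3 and 14.9 FPKM in KO replicates 1 to 4, against 53.7, 54.0, 92.0 and 48.1 FPKM in Control replicates 1 to 4, and it fell by 1.92 on the log2 scale (limma, adjusted p = 6.88e-05). KO replicate 2 stood apart from the other libraries. It had 1642 transcript entries listed at 0, against 506 to 734 in the other 7 libraries. Its values lay above those of the other KO libraries for short genes and below them for long genes. Its median deviation from the group mean was 0.38 on the log2 scale in the shortest quartile of genes and -0.27 in the longest. The other KO libraries were at -0.21 to -0.02 in the shortest and 0.04 to 0.16 in the longest. The depth, read from step sizes among low FPKM values, was 45250000 to 62750000 fragments in KO libraries and 60750000 to 67250000 in Control libraries. Germ cell genes (Ddx4, Dazl, Pou5f1 and Sall4) summed to 702 to 762 FPKM in KO libraries and 690 to 782 FPKM in Control libraries. Sall4 was lower, at 46.45 FPKM in the KO and 76.35 FPKM in Control (log2 change -0.72, adjusted p = 0.00175, limma). The other 3 were not called. Over all tested genes, 25.3% were called higher and 12.1% lower. Of 10 markers of undifferentiated spermatogonia 8 were lower. The sum of the 10 was 173 to 222 FPKM in KO libraries against 285 to 372 FPKM in Control libraries. Of 11 markers of meiotic prophase 10 were higher. The sum of the 11 was 719 to 901 FPKM in KO libraries against 435 to 449 FPKM in Control libraries. Among the 10 higher ones, Meiob had a Control mean of 0.579 FPKM and passed the minimum of 1 FPKM only through the KO. Among the 8 lower markers of undifferentiated spermatogonia, Neurog3 had a KO mean of 0.351 FPKM and passed it only through Control. Of 6 markers of differentiating spermatogonia 2 were higher, near the share of 25.3% over all tested genes. Their sums were 340 to 418 FPKM in KO libraries and 261 to 352 FPKM in Control libraries. Endothelial markers, 2 of 3 tested higher, summed to 11.2 to 12.1 FPKM in KO libraries and 3.98 to 5.62 FPKM in Control libraries, while Sertoli cell markers summed to 23.3 to 60.8 FPKM in KO libraries and 16.2 to 49.4 FPKM in Control libraries, with none of the 7 tested called. The markers found for Leydig cells, peritubular cells and macrophages summed to at most 7.26 FPKM in any library and none was called. For Leydig cells and for macrophages only 1 of 6 listed markers was found (Star and Cd68). Those found for blood cells, 2 of 5, summed to 1.603 to 2.495 FPKM in KO libraries and 0.282 to 0.760 FPKM in Control libraries. Alas2 averaged 1.65 FPKM in the KO and 0.289 FPKM in Control, and Hbb-b1 0.234 and 0.268 FPKM. Both were under the minimum level for testing. The part of these differences in the results that follow was not tested, and in a sorted population fewer cells of a type and less RNA per cell cannot be told apart.

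Of the 10 genes, 1 was higher in the KO (Zfp57), 3 were lower (Ehmt2, Cbx3 and Ehmt1) and 6 did not pass the test, which was limma across all 13483 tested genes at an adjusted p under 0.05. Over all tested genes, 25.3% were called higher, 12.1% lower and 37.5% in either direction, so 1 of 10 higher is a smaller share than the background and 3 of 10 lower a larger one. The median log2 change was -0.16 over the 10 genes and 0.09 over all tested genes. The KO and Control values did not overlap in 6 of the 10, against 38.6% of all tested genes. Without KO replicate 2 the same 3 genes were called lower and Zfp57 higher. Without Control replicate 1 only Ehmt2 was called lower. With the FPKM totals of all libraries made equal, the median of all tested genes was 0.74 and none of the 10 was called lower: Ehmt2, Cbx3 and Ehmt1 were at 0.067, 0.0075 and 0.40, below that median, and Zfp57 at 3.06, above it. When small RNA genes were removed before totals were made equal, that median was 0.0079. Of the 10, 4 were then called lower: Ehmt2 (-0.75), Cbx3 (-0.81), Ehmt1 (-0.40) and Suv39h1 (-0.29). Over all tested genes, 15.1% were lower and 20.7% higher there.

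**Figure D1:**
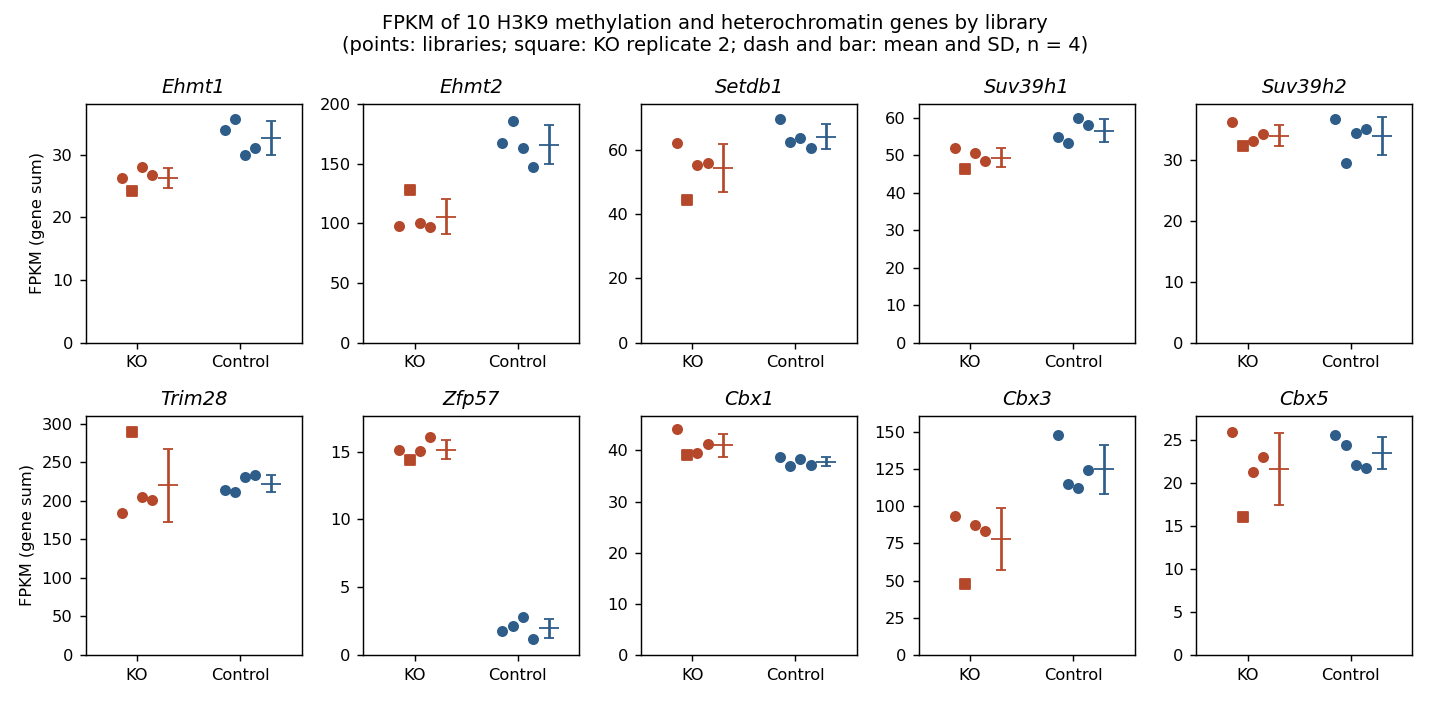
FPKM of the 10 genes in each library, KO left of Control in each panel, with vertical axes from 0; points are libraries, squares mark KO replicate 2, and the dash and bar are mean and SD (n = 4). Zfp57 sits at 14.4 to 16.0 FPKM in the KO and 1.19 to 2.83 FPKM in Control, while Ehmt2, Ehmt1 and Cbx3 sit lower in all 4 KO libraries.

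Promoter sequence is shown for Zfp57, Ehmt2 and Cbx3, the members whose RNA differed most between the groups. The windows run from 250 bases before to 50 bases after a RefSeq start, on build GRCm38.p6. For each gene the window whose start lay nearest to that of its most abundant coding transcript entry in the KO is given, 5′ to 3′ on the plus strand, with every CG dinucleotide in capitals. Zfp57 is at chr17:37002275-37002574, Ehmt2 at chr17:34898224-34898523 and Cbx3 at chr6:51470366-51470665.
Zfp57: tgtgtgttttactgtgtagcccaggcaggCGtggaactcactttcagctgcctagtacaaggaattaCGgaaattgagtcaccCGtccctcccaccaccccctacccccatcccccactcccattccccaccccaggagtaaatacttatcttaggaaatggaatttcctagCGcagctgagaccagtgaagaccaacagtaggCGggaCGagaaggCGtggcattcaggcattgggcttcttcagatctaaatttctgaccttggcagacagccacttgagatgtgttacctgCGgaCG
Ehmt2: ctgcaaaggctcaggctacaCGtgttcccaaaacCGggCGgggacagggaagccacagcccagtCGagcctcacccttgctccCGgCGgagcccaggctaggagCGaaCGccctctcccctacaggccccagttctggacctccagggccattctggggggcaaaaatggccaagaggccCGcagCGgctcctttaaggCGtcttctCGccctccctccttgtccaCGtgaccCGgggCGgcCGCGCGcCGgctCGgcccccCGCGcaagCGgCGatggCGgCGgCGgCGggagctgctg
Cbx3: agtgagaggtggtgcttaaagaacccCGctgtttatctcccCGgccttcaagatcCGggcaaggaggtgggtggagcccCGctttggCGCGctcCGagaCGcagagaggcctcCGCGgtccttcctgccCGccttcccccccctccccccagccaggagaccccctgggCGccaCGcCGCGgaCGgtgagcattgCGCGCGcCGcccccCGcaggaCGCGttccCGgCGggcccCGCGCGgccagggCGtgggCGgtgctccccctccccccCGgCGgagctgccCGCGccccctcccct
The searched motif was CG, which reads the same on either strand and which was present at least 1 time in 94.6% of the 32851 RefSeq windows, with a median of 7 in a window. The Zfp57 window held 9, and 45.8% of all windows held at least that many. The Ehmt2 window held 28 and the Cbx3 window 34, counts that 14.2% and 7.7% of all windows reached. All 10 genes had at least 1 window, 16 in all, with 4 to 40 CG. The 3 windows of Zfp57 held 4, 6 and 9, and every window of another member held more than 9 except the 8 of a Cbx5 start inside the gene. These are counts of letters and say nothing of methylation in these cells.

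Among the methyltransferases, the genes of the EHMT heterodimer were lower in the KO and the other 3 did not pass the test. Ehmt2 (ENSMUSG00000013787, chromosome 17, 34898469 to 34914052, plus strand) was at 97.7, 128, 100.5 and 96.8 FPKM in KO replicates 1 to 4, against 168, 186, 164 and 147 FPKM in Control replicates 1 to 4. All KO values lay below all Control values, and KO replicate 2 was the highest of its group. The means were 106 ± 15.1 FPKM in the KO and 166 ± 16.1 FPKM in Control (SD, n = 4 each), 1.57-fold lower, with a log2 change of -0.65 (SE 0.11, 95% interval -0.91 to -0.40, adjusted p = 0.00200, limma). Without KO replicate 2 the log2 change was -0.75.

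Ehmt1 (ENSMUSG00000036893, chromosome 2, 24789928 to 24919614, minus strand), whose protein is the partner of EHMT2, was at 26.3, 24.2, 27.98 and 26.8 FPKM in KO replicates 1 to 4 and 33.9, 35.8, 29.99 and 31.1 FPKM in Control replicates 1 to 4. The groups did not overlap, but the highest KO library and the lowest Control library were close. The means were 26.3 ± 1.59 FPKM in the KO and 32.7 ± 2.65 FPKM in Control (SD, n = 4 each), 1.24-fold lower (log2 change -0.30, SE 0.08, adjusted p = 0.0184, limma). The call was lost for its most abundant entry, where the log2 change was -0.11 (adjusted p = 0.5845, limma), without Control replicate 1 (log2 change -0.28, adjusted p = 0.0523, limma) and when protein-coding entries alone were summed (log2 change -0.38, adjusted p = 0.0857, limma). Within a library, the log2 ratio of Ehmt2 to Ehmt1 was 1.90, 2.41, 1.84 and 1.85 in KO libraries and 2.31, 2.38, 2.45 and 2.24 in Control libraries. KO replicate 2 lay among the Control libraries and the other 3 KO libraries below them, and the mean difference of -0.34 did not pass (exact two-sided permutation test over 70 assignments, p = 0.114, adjusted over 5 ratios 0.114).

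Setdb1, which places trimethylation for TRIM28, was at 62.0, 44.3, 55.3 and 55.9 FPKM in KO libraries and 69.6, 62.4, 63.8 and 60.7 FPKM in Control libraries. The groups overlapped through KO replicate 1, and the log2 change of -0.24 (95% interval -0.48 to -0.01) did not pass (adjusted p = 0.0997, limma). Suv39h1, on the X chromosome, was at 52.0, 46.3, 50.6 and 48.6 FPKM in KO libraries and 54.9, 53.3, 60.1 and 58.1 FPKM in Control libraries. Its groups did not overlap, and the log2 change of -0.19 (95% interval -0.36 to -0.03, adjusted p = 0.0627, limma) lay just outside the threshold. Suv39h2 was at 36.2, 32.3, 33.1 and 34.3 FPKM in KO libraries and 36.7, 29.5, 34.4 and 35.1 FPKM in Control libraries. Its groups overlapped throughout, with a log2 change of 0.01 (95% interval -0.18 to 0.20, adjusted p = 0.964, limma). The log2 ratio of Suv39h2 to Suv39h1 averaged -0.54 ± 0.05 in the KO and -0.74 ± 0.12 in Control (SD, n = 4 each), a difference of 0.20 that did not pass after adjustment (exact two-sided permutation test, p = 0.0571, adjusted over 5 ratios 0.0714). Setdb1 and Suv39h1 would be called lower after median-ratio scaling (log2 changes -0.36 and -0.31, adjusted p = 0.0419 and 0.00888, limma), a setting under which 18.2% of all tested genes were lower and 19.5% higher. Suv39h1, but not Setdb1, would also be called lower with quantile normalization (-0.24, adjusted p = 0.0384, limma). The same held with totals made equal after small RNA genes were removed (-0.29, adjusted p = 0.0448, limma) or over protein-coding genes only (-0.29, adjusted p = 0.0407, limma).

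**Figure D2:**
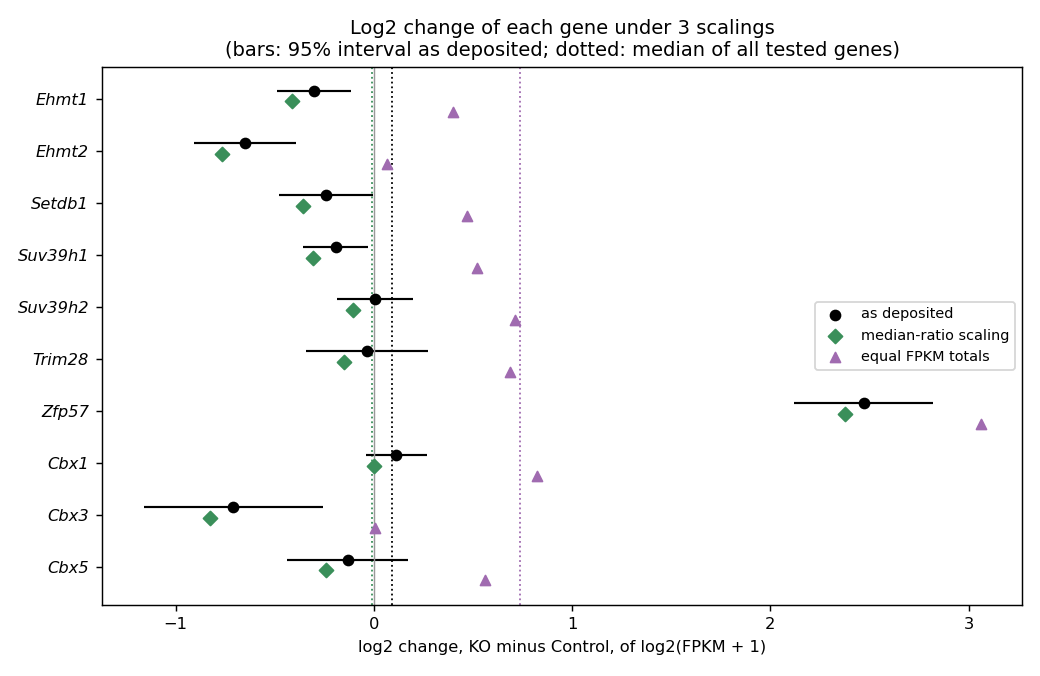
Log2 change, KO minus Control, of log2(FPKM + 1) for each gene as deposited (black, with the 95% interval), after median-ratio scaling (green) and with equal FPKM totals (purple); dotted lines are the medians of all tested genes, 0.09, -0.01 and 0.74. Zfp57 lies far right of each median, and Ehmt2 and Cbx3 lie left of each median under all 3 scalings.

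Of the genes for recruiting proteins, Zfp57 was several times higher in the KO and Trim28 was not called. Zfp57 (ENSMUSG00000036036, chromosome 17, 37001163 to 37010635, plus strand) was at 15.1, 14.4, 15.1 and 16.0 FPKM in KO replicates 1 to 4, against 1.73, 2.13, 2.83 and 1.19 FPKM in Control replicates 1 to 4. The lowest KO library was several times above the highest Control library, and KO replicate 2 was close to the others of its group. The means were 15.1 ± 0.685 FPKM in the KO and 1.97 ± 0.689 FPKM in Control (SD, n = 4 each), 7.69-fold higher (log2 change 2.47, SE 0.16, 95% interval 2.12 to 2.82, adjusted p = 1.06e-05, limma). It had the lowest mean of the 10 genes in either group, at the 41.7th percentile of tested genes over all 8 libraries.

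Trim28, the corepressor that ZFP57 and other KRAB zinc finger proteins need, was the most abundant of the 10 genes, at 184.5, 290, 206 and 201 FPKM in KO libraries and 214, 212, 231 and 233 FPKM in Control libraries. KO replicate 2 was above all 7 other libraries and the other 3 KO libraries were below all Control libraries. The log2 change was -0.03 (95% interval -0.34 to 0.27, adjusted p = 0.862, limma) with all libraries and -0.17 without KO replicate 2 (adjusted p = 0.0811, limma). KO replicate 2 was also high for an entry annotated as a retained intron, Trim28-203, at 113 FPKM there, against 26.4 to 43.4 FPKM in the other KO libraries and 25.7 to 56.0 FPKM in Control libraries. The coding entry Trim28-201 averaged 124 ± 6.54 FPKM in the KO and 137 ± 5.97 FPKM in Control (SD, n = 4 each), with overlapping groups and a log2 change of -0.14 (adjusted p = 0.229, limma over transcript entries). Zbtb45 overlaps Trim28 on the opposite strand.

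Among the HP1 genes, Cbx3 was lower in the KO, and Cbx1 and Cbx5 were not called. Cbx3 (ENSMUSG00000029836, chromosome 6, 51470360 to 51483704, plus strand) was at 93.4, 47.5, 87.2 and 83.4 FPKM in KO replicates 1 to 4, against 148, 115, 112 and 124 FPKM in Control replicates 1 to 4. The groups did not overlap, and KO replicate 2 was far below the rest of its group. The means were 77.9 ± 20.7 FPKM in the KO and 125 ± 16.3 FPKM in Control (SD, n = 4 each), 1.601-fold lower (log2 change -0.71, SE 0.20, adjusted p = 0.0213, limma). Without KO replicate 2 the log2 change was -0.49 (adjusted p = 0.00462, limma), and without Control replicate 1 it was -0.62 and no longer called (adjusted p = 0.0616, limma).

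Cbx1 was at 44.1, 39.1, 39.5 and 41.3 FPKM in KO libraries and 38.7, 37.0, 38.4 and 37.1 FPKM in Control libraries. Every KO value was above every Control value, by little, and the log2 change of 0.11 did not pass (95% interval -0.04 to 0.27, adjusted p = 0.219, limma). Cbx5 was at 26.01, 16.1, 21.3 and 23.1 FPKM in KO libraries and 25.6, 24.5, 22.1 and 21.8 FPKM in Control libraries. KO replicate 2 was lowest and KO replicate 1 highest of all 8, and the log2 change was -0.13 (95% interval -0.44 to 0.17, adjusted p = 0.478, limma).

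The makeup of HP1 RNA, which does not depend on how libraries are scaled, differed between the groups. Cbx3 made up 57.1%, 46.3%, 58.9% and 56.4% of the summed FPKM of the 3 HP1 genes in KO replicates 1 to 4, against 69.7%, 65.1%, 65.0% and 67.8% in Control replicates 1 to 4. No KO library reached the lowest Control library, and the mean difference was -12.2 percentage points. Cbx1 made up 29.9 ± 5.48% in the KO and 20.4 ± 1.67% in Control, and Cbx5 15.4 ± 0.674% in the KO and 12.7 ± 0.905% in Control (SD, n = 4 each). These shares count all entries. Protein-coding ones held 24.8% to 39.4% of Cbx1 FPKM in KO libraries and 37.7% to 40.5% in Control libraries. For Cbx3 they held at least 96.65% and for Cbx5 100%. Coding sums averaged 13.9 and 14.8 FPKM for Cbx1, 75.7 and 120.9 FPKM for Cbx3, and 21.6 and 23.5 FPKM for Cbx5 (KO and Control). Each of the 3 shares separated the groups and each test gave 0.0286, the smallest p that 70 assignments allow (exact two-sided permutation test, adjusted over 5 ratios 0.0476). The 3 shares sum to a whole and are not independent, and leaving out a library leaves a smallest possible p of 0.0571. Without any single library the Cbx3 difference stayed between -13.6 and -9.41 percentage points.

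**Figure D3:**
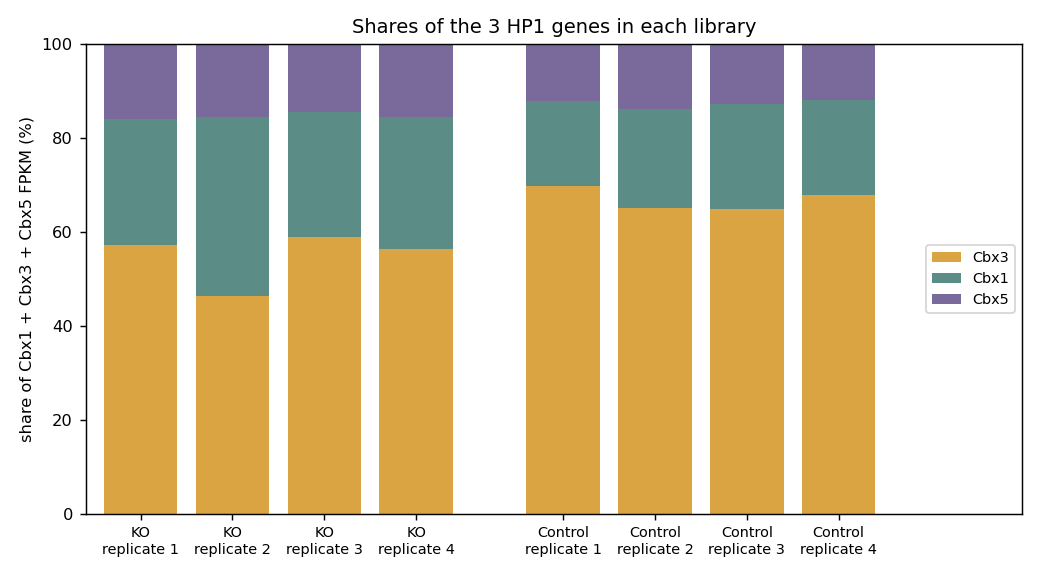
Share of Cbx3, Cbx1 and Cbx5 in their summed FPKM (vertical axis, percent), one bar per library, KO libraries left of Control libraries. The Cbx3 segment spans 46.3% to 58.9% in the KO and 65.0% to 69.7% in Control. All transcript entries of each gene are counted, and most Cbx1 FPKM is from entries that are not protein-coding.

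By level, Trim28 came first in either group, and its range lay above that of the next gene, Ehmt2. In the KO, Cbx3, Setdb1 and Suv39h1 followed with ranges that overlapped from each to the next, then Cbx1, Suv39h2, Ehmt1 with Cbx5, and Zfp57. In Control, the ranges of Ehmt2 and Cbx3 overlapped, and Setdb1, Suv39h1, Cbx1, Suv39h2 with Ehmt1, Cbx5 and Zfp57 followed. Against all tested genes, mean levels over the 8 libraries stood between the 68.0th percentile (Cbx5) and the 98.3rd (Trim28), apart from that of Zfp57.

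Single transcript entries showed which RNAs carried the changes. Of the 71 entries 48 reached a mean of 1 FPKM and were tested, and 2 were higher and 8 lower in the KO (limma over 26612 entries, of which 12.0% were called higher and 5.93% lower). The 2 higher entries were protein-coding entries of Zfp57. Their Control means were under 1 FPKM, so they passed the minimum only through the KO, as Cbx3-206 among the lower entries did only through Control, and the counts rest in part on that selection. Without the minimum 6 entries were higher and 7 lower. Zfp57-201 averaged 5.55 ± 2.27 FPKM in the KO and 0.693 ± 0.499 FPKM in Control, and Zfp57-212 averaged 3.19 ± 0.537 FPKM in the KO and 0.390 ± 0.118 FPKM in Control (SD, n = 4 each). All protein-coding entries of Zfp57 together came to 13.3 ± 0.570 FPKM in the KO and 1.57 ± 0.505 FPKM in Control, 8.46-fold higher.

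Of the 8 lower entries 5 belonged to Ehmt2. Its most abundant, Ehmt2-204, was at 40.0, 32.9, 30.9 and 38.7 FPKM in KO libraries and 68.0, 68.1, 57.3 and 60.4 FPKM in Control libraries, so the groups were far apart (log2 change -0.82, adjusted p = 0.00170, limma). The protein-coding entries of Ehmt2 summed to 81.5 ± 4.56 FPKM in the KO and 140 ± 14.9 FPKM in Control (SD, n = 4 each), 1.71-fold lower, a wider gap than in the sum of all its entries. KO replicate 2 differed from the rest of its group in entries that are not protein-coding: Ehmt2-205, a retained intron, was at 23.9 FPKM there and at 5.25 to 7.03 FPKM in the other KO libraries, and Ehmt2-208, annotated for nonsense-mediated decay, was at 25.7 FPKM there and at 2.14 to 6.90 FPKM in the others. Control libraries held 6.70 to 12.8 FPKM of Ehmt2-205 and 5.62 to 9.68 FPKM of Ehmt2-208.

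The other lower entries were Cbx3-201, Cbx3-206 and Setdb1-201. Cbx3-201, the most abundant coding entry of Cbx3, averaged 55.7 ± 8.13 FPKM in the KO and 84.5 ± 8.39 FPKM in Control (SD, n = 4 each; log2 change -0.60, adjusted p = 0.0126, limma). Cbx3-202 was at 28.3, 0.900, 17.4 and 23.7 FPKM in KO libraries and 48.6, 33.4, 25.5 and 27.7 FPKM in Control libraries. KO replicate 2 was close to 0 for it, the groups overlapped, and it was not called (adjusted p = 0.246, limma). Setdb1-201 averaged 6.32 ± 0.979 FPKM in the KO and 9.59 ± 0.563 FPKM in Control (SD, n = 4 each; log2 change -0.54, adjusted p = 0.0151, limma), although the sum of Setdb1 entries was not called. For Cbx1, the most abundant entry was Cbx1-204, annotated for nonsense-mediated decay, at 26.6 ± 1.88 FPKM in the KO and 22.4 ± 0.292 FPKM in Control, while its protein-coding entries summed to 13.9 ± 3.19 FPKM in the KO and 14.8 ± 0.838 FPKM in Control (SD, n = 4 each). Cufflinks divides fragments among entries that share exons, so the level of a single entry is less certain than a gene sum.

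**Figure D4:**
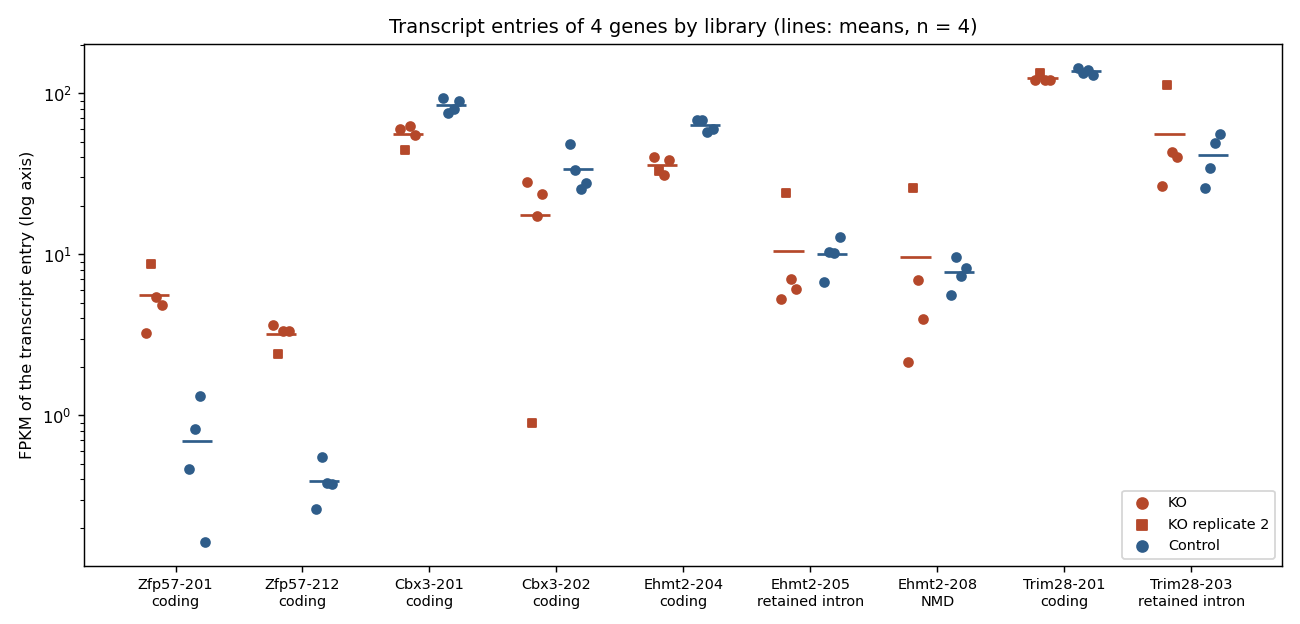
FPKM (log axis) of 9 transcript entries of Zfp57, Cbx3, Ehmt2 and Trim28, KO left of Control for each; points are libraries, squares mark KO replicate 2, lines are means (n = 4). KO replicate 2 is at 0.900 FPKM for Cbx3-202 and at 113 FPKM for the retained intron of Trim28, far from the other libraries of its group.

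Other genes of the pathway were followed in 5 lists, 64 tested genes in all, of which 18 were higher and 9 lower in the KO. Those are 28.1% and 14.1%, close to the 25.3% and 12.1% of all tested genes. The counts were 22 higher and 12 lower without KO replicate 2, and 14 higher and 17 lower after median-ratio scaling. Among 9 tested H3K9 demethylases, 4 were lower and none higher, with a median log2 change of -0.32 against 0.09 over all tested genes. Kdm4a, which removes the higher methylation states of lysine 9 and lysine 36, was at 8.06 ± 1.61 FPKM in the KO and 17.0 ± 1.66 FPKM in Control (SD, n = 4 each; 2.10-fold lower, adjusted p = 0.000596, limma). Its relative Kdm4b was at 2.61 ± 0.545 FPKM in the KO and 5.80 ± 0.302 FPKM in Control (log2 change -0.93, adjusted p = 0.000431, limma). Kdm3b and Kdm3a, which act on the lower states, changed by -0.45 and -0.34 (adjusted p = 0.0158 and 0.0294, limma). Kdm3a lost its call, and the list had 3 lower, without any of KO replicates 3 and 4 or Control replicates 1, 3 and 4 (adjusted p = 0.0662 to 0.0783, limma). Without KO replicate 2, 5 were lower and 1 higher, after median-ratio scaling 6 were lower, and with equal FPKM totals, where Kdm3a and Kdm3b were at 0.37 and 0.24 against the median of 0.74, none was. In the same libraries markers of undifferentiated spermatogonia were lower and those of meiotic prophase higher, as given above, and their part in this list was not tested.

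Among 18 readers and assembly factors of heterochromatin, 4 were lower and 1 higher, against 12.1% and 25.3% of all tested genes. The median log2 change was -0.22. Hp1bp3, an HP1-binding linker histone relative, averaged 53.9 ± 5.18 FPKM in the KO and 77.7 ± 8.54 FPKM in Control (SD, n = 4 each; log2 change -0.52, adjusted p = 0.00456, limma). Suv420h1, which methylates lysine 20 of histone H4 where HP1 sits, changed by -0.72 (adjusted p = 0.00696, limma), but its most abundant entry alone was higher, by 0.27 (adjusted p = 0.0290, limma). Setd8, the monomethyltransferase of the same lysine, and Smarcad1, a remodeller that works with TRIM28, changed by -0.51 and -0.42 (adjusted p = 0.0211 and 0.0338, limma). The call of Setd8 was lost without Control replicate 1 or 3 (adjusted p up to 0.0550, limma), that of Smarcad1 without KO replicate 3 or 4 or Control replicate 1, 3 or 4 (up to 0.0890), and that of Hp1bp3 for its most abundant entry (0.0740). Mphosph8, a reader of methylated lysine 9 in the HUSH complex, named after its values were seen, was at 64.7 ± 3.17 FPKM in the KO and 56.1 ± 2.63 FPKM in Control (SD, n = 4 each; adjusted p = 0.04997, limma). This call, the only higher one of the list, was lost in 7 of 8 fits that left out a library (all but that without KO replicate 2), with a pseudocount of 0.1 (adjusted p = 0.0517, limma), without the limma trend, with the replicate block, and under each scaling other than equal FPKM totals (log2 change 0.09 after median-ratio scaling). The count of lower genes was 6 without KO replicate 2, 2 without Control replicate 1 or Control replicate 3, 9 after median-ratio scaling and 0 with equal FPKM totals, where 8 were higher. Of all tested genes, 18.2% were lower after median-ratio scaling and 71.2% higher with equal FPKM totals.

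Of all tested genes 25.3% were called higher and 12.1% lower. Of 9 partners of the methyltransferases and other SET enzymes, 3 were higher, close to that share, and none lower, with a median log2 change of 0.05. They were Cdyl2 (4.87 ± 0.273 FPKM in the KO and 3.11 ± 0.172 FPKM in Control, log2 change 0.51, adjusted p = 0.00142, limma), Prdm9, the meiotic enzyme that marks recombination sites (5.05 ± 1.39 FPKM in the KO and 2.39 ± 0.703 FPKM in Control, log2 change 0.83, adjusted p = 0.0119, limma), and Setdb2 (log2 change 0.27, adjusted p = 0.0348, limma). The call of Setdb2 was lost after median-ratio scaling (0.16, adjusted p = 0.220, limma), with other scalings except equal FPKM totals, for its most abundant entry (adjusted p = 0.272, limma), for its protein-coding entries, and in 6 of 8 fits that left out a library (all but those without KO replicate 2 or Control replicate 1). Of 7 other KRAB zinc finger genes 2 were higher, again close to the share over all tested genes. They were Zfp708 (log2 change 0.65, adjusted p = 0.00237, limma) and Gm15446 (log2 change 0.34, adjusted p = 0.0255, limma). The median of the 7 was 0.26, against 2.47 for Zfp57. Gm15446 was not called after median-ratio scaling (0.26, adjusted p = 0.0703, limma). The count was 4 without KO replicate 2 and 1 without any of KO replicates 1, 3 and 4 or Control replicates 1 and 2.

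Over all tested genes 25.3% were higher and 12.1% lower. In embryos ZFP57 acts at control regions of some imprinted genes. Imprinted genes were higher in 12 of 21 tested, lower in 1 and not called in 8, with a median log2 change of 0.55. Of the 12, Sgce and Nap1l5 had Control means under 1 FPKM and passed the minimum only through the KO; a fit without the minimum, which did not select them, also called 12 higher. Sgce averaged 5.54 ± 0.551 FPKM in the KO and 0.912 ± 0.285 FPKM in Control, 6.08-fold higher (SD, n = 4 each; log2 change 1.78, adjusted p = 2.25e-05 without the minimum, limma). Slc38a4, an amino acid transporter, was at 11.9 ± 1.77 FPKM in the KO and 2.85 ± 0.479 FPKM in Control, 4.17-fold higher (log2 change 1.74, adjusted p = 1.98e-05, limma). Nap1l5 and Rasgrf1 were 3.81-fold and 3.40-fold higher (adjusted p = 2.25e-05 without the minimum and 0.000183 with it, limma). Gnas, named after its values were seen, was the lower one, at 8.84 ± 0.479 FPKM in the KO and 11.8 ± 1.35 FPKM in Control (log2 change -0.38, adjusted p = 0.0137, limma), but not called for its most abundant entry (-0.12, adjusted p = 0.585, limma). With equal FPKM totals, under which 71.2% of all tested genes were higher, 19 were higher and none lower. Of the endothelial markers given above, Pecam1 and Tek were higher in the same KO libraries and Cdh5 was not called. Their part in this list was not tested.

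**Figure D5:**
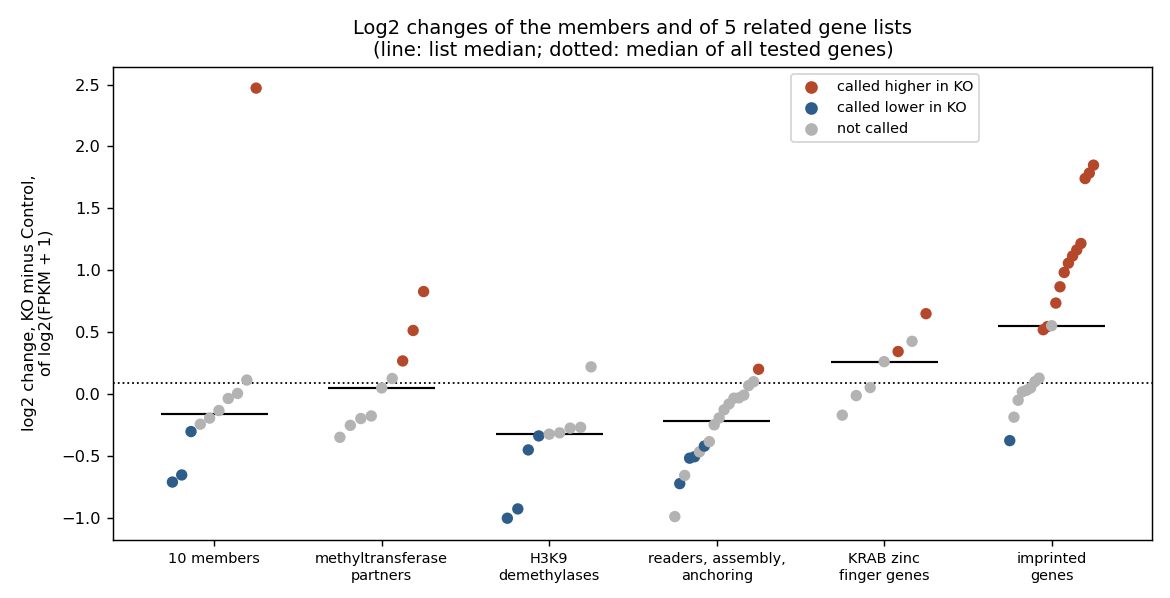
Log2 change, KO minus Control, of log2(FPKM + 1) for the 10 genes and for each tested gene of the 5 lists (points, red called higher, blue called lower, grey not called); short lines are list medians and the dotted line is the median of all tested genes, 0.09. The demethylases sit mostly below 0 and the imprinted genes mostly above it, and Zfp57 at 2.47 is the highest point shown.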

How the data were processed

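RNA of 4 KO and 4 Control libraries was analysed from FPKM, fragments scaled by transcript length and library size, which the authors deposited in a single table with a column for each library and a row for each of 45550 transcripts. The submitters' processing notes name Cufflinks and Cuffdiff, TopHat and Bowtie, and mm10 as the build, and per the labels' protocols libraries were stranded and poly(A) selected with a TruSeq kit. Versions, the annotation release and the strand setting of the counting were not stated in the material used here, so fragments of overlapping genes (Setdb1 with Cers2, Suv39h2 with Dclre1c, Trim28 with Zbtb45, Cbx1 with a pseudogene) may be shared between them.

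Entries were summed to 17589 genes by gene identifier. Those whose mean reached 1 FPKM entered the test. Values were taken as log2(FPKM + 1), so the pseudocount was 1, and fitted by limma 3.58.1 (lmFit, then eBayes with trend) in R 4.3.3, two-sided, with Benjamini-Hochberg adjustment over all 13483 genes and calls at an adjusted p under 0.05; folds are ratios of mean FPKM. The log2 changes are KO minus Control and understate changes of low genes. Transcript entries were fitted in the same way. The 5 within-library ratios were compared by exact permutation in Python 3.11.15 with scipy 1.17.1. The limma step was tested on simulated data. Positions and transcript classes came from GENCODE M21 on GRCm38, the build of mm10, and promoter windows from RefSeq.

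Depth was not stated. It was inferred from genes with a single transcript, where 62.3% to 67.1% of low values came out whole to within 0.1 fragment (20% would by chance), and was used as a description only; no counts were made from it. Replicate numbers were checked for pairing by correlations between libraries, which cannot exclude it, so the block is an alternative only. Genes named are Kdm1a, the 10 members, and in each list the called genes with the smallest adjusted p, up to 4. Mphosph8 and Gnas fall outside this rule. Fam208a, Rif1 and Kcnq1ot1 of the lists were not analysed here, and Kdm4d, Zim1 and Peg10 were under the minimum level. The members and lists were chosen with earlier results of these data known, so no list is independent evidence of its direction. Alternatives covered the pseudocount, the filter, scaling, small RNAs, the limma settings, the block, the choice of transcript entries and each library left out.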

Additional observations from a re-analysis of the deposited data

Results flagged for a closer look

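In groups of 4 libraries, a value was picked out when its gap to the nearest other value, divided by the range of the group, passed Dixon's 95% critical value. Chance picks out about 1 in 20 groups, and here 6 of 90 were. Of these, 5 were of KO replicate 2. Its Ehmt2 level was 128.3 FPKM, against 96.83 to 100.5 FPKM in the other KO libraries. Its Cbx1 share of HP1 FPKM was 38.11%, against 26.7% to 27.96%, and its log2 ratio of Ehmt2 to Ehmt1 was 2.407, against 1.844 to 1.896. Zfp708 was at 4.595 FPKM in it and at 5.929 to 6.155 FPKM in the other KO libraries. Protein-coding entries made up 96.7% of its Zfp57 FPKM, against 84.44% to 85.54%. The other value was that of Kdm1a in Control replicate 3, at 91.95 FPKM, against 48.08 to 53.95 FPKM in the other Control libraries.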

How the results depend on the processing

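Zfp57 was higher under all 19 gene-level alternatives, with log2 changes of 1.94 to 3.06. Ehmt2 stayed lower and called in all of them except equal FPKM totals. That setting, by its construction, multiplied the libraries by the inverse of totals that ran from 700953 to 1106723 in the KO and from 1067254 to 1767024 in Control, and moved the median log2 change of all tested genes from 0.09 to 0.74, so changes under it are to be read against 0.74. Under it the log2 changes were 0.40 for Ehmt1, 0.067 for Ehmt2, 0.47 for Setdb1, 0.52 for Suv39h1, 0.69 for Trim28, 0.0075 for Cbx3, 0.56 for Cbx5, 0.24 for Kdm3b, 0.37 for Kdm3a, 0.20 for Hp1bp3, 0.19 for Setd8, 0.26 for Smarcad1 and 0.29 for Gnas. Members called higher then numbered 5 and lower 0, pathway genes higher 39 and lower 0, and transcript entries higher 9 and lower 0. Over all tested genes the split was 71.2% higher and 1.07% lower there, 19.5% and 18.2% with median-ratio factors, 19.7% and 19.6% with quantile-normalized values, 20.7% and 15.1% with small RNA genes removed, and 25.3% and 12.1% as deposited. Median-ratio scaling called 5 members and 17 pathway genes lower, and quantile normalization 14 pathway genes lower. The most abundant entry of each gene gave 2 members higher, Zfp57 and Cbx1, a Cbx5 share difference of 2.216 percentage points (adjusted p = 0.143, exact permutation), a log2 ratio difference of Ehmt2 to Ehmt1 of -0.72 (adjusted p = 0.0476, exact permutation), a loss of the call of Ehmt1 (-0.11) and 0.27 for Suv420h1. Without the filter 6 transcript entries were higher. Suv39h2, not called anywhere but under equal totals, was at -0.11 after median-ratio scaling, -0.045 when quantile-normalized, -0.089 with small RNA genes removed, -0.013 for its most abundant entry, and, in alternatives chosen after seeing the data, -0.0075 for protein-coding entries and -0.089 for protein-coding genes alone; Cbx1 was at -0.11 for protein-coding entries. With the replicate number as a block, the HP1 share differences stayed at 9.498, -12.22 and 2.718 percentage points. Each had adjusted p = 0.156 (exact permutation over 16 sign flips), and 16 flips allow no p under 0.05, so that test could not pass. In the limma fit with the block, Ehmt1 lost its call (adjusted p = 0.0618, limma), and 2983 genes were higher and 1408 lower. The correlations of same-numbered libraries were 0.224, -0.119, -0.133 and -0.093, and those of differently numbered ones reached 0.25. Such correlations cannot tell whether the samples were prepared in pairs. With each library left out in turn, members called higher numbered 1 each time and lower ran from 1 to 4, pathway genes higher from 14 to 22 and lower from 6 to 12, transcript entries higher numbered 2 each time and lower from 4 (without Control replicate 1 or 3) to 7. The share differences ran from 6.773 to 10.58 (Cbx1), -13.63 to -9.408 (Cbx3) and 2.467 to 3.128 (Cbx5), the Ehmt2 to Ehmt1 difference from -0.48 to -0.29 and that of Suv39h2 to Suv39h1 from 0.17 to 0.26, with a smallest possible p of 0.0571. The log2 change of Suv39h2 ran from -0.057 to 0.0437 and that of Trim28 from -0.17 to 0.0425. Beyond these settings the causes of changed calls were not tested. The lowest level of a member was 1.19 FPKM, and the part of depth in these results was not tested. Values of single entries rest on how fragments were divided among overlapping transcripts.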
